A study of Mus musculus with 34 samples.

Results

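The mouse genes of the proteasome, the protease that degrades ubiquitin-tagged proteins, were examined in peak lists of 3 DNA-bound proteins. The cells were of the line Beta-TC6, mouse pancreatic β-cells that make insulin. Members were the protein-coding genes of the RefSeq table (assembly GRCm38.p6, which is mm10) whose symbol starts with Psma to Psmg and a number, without the immunosubunit genes Psmb8 and Psmb9. This gave 49 of 21887 protein-coding genes, of which 47 encode subunits, activators, an inhibitor or assembly helpers. The other 2, Psmc3ip and Psme3ip1, only share the start of the name. Psmc3ip acts in meiotic recombination, and the protein of Psme3ip1 binds the activator encoded by Psme3. A member was counted as having a peak where its body was the nearest protein-coding gene body within 50 kb of a deposited peak.

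The proteasome is a barrel-shaped core particle, capped by a regulatory particle that recognises ubiquitin, unfolds the substrate with a ring of ATPases and feeds it into the core. In NF-κB signalling it destroys the inhibitor IκBα after a stimulus such as interleukin 1β and trims NF-κB precursor proteins. Inflammatory cytokines are known to exchange the catalytic core subunits for immunosubunits, and proteasome genes are also switched on together by the transcription factor NRF1, encoded by Nfe2l1.

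Chromatin immunoprecipitation with sequencing (ChIP-seq) had been done for p65, the RELA subunit of NF-κB, and for PDX1, a homeodomain factor of β-cell identity, in 4 groups of 3 samples each. These were Bmal1-/- cells with IL-1β, Bmal1-/- cells under control conditions, WT cells with IL-1β and WT cells under control conditions; Bmal1 encodes an activator of the circadian clock. SIN3A, a corepressor scaffold that carries histone deacetylases, was precipitated from WT cells given siPDX1, a small interfering RNA against Pdx1, or the control siCon, with 2 samples each. All cells, controls included, had received a 1 h pulse of 10 µM forskolin, which synchronises the clock. The labels do not give the IL-1β dose and time, whether the Bmal1-/- cells are 1 clone, or whether the samples of a group were separate cultures. For PDX1 with IL-1β the titles name PDX1 but the antibody entry reads p65, and the titles were followed. The series title names NF-κB and circadian enhancers and β-cell function as its subject.

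Each group had 1 deposited peak list and no value per replicate, so no difference between lists could be set against replicate error and no test was made. Tag counts are given side by side as the authors' values, for a gene's highest peak in each list unless a site is named, and no change in binding is read from them. Depth was 31.0 to 35.0 M tags for SIN3A and 53.5 to 63.9 M tags for p65 and PDX1. Numbers of peaks differed far more. For p65 they were 16162 in Bmal1-/- cells with IL-1β, 173 in Bmal1-/- control cells, 31389 in WT cells with IL-1β and 3157 in WT control cells. In the same order they were 8095, 8339, 38930 and 40028 for PDX1, and SIN3A had 14653 peaks with siPDX1 and 13109 with siCon. The part of these differences in list length in the gene counts below was not tested beyond lists of equal length. Peak lists carry no transcript levels, which leaves the Bmal1 deletion, the Pdx1 knockdown and the β-cell type unchecked here.

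The DNA before the start of some members is printed to show motifs that were searched for. The sequences below are from the RefSeq promoter table (GRCm38.p6), run 5′ to 3′ on the gene's strand and end at the last base before the annotated start unless stated otherwise. Capitals mark the ETS core CCGGAAG or its complement, a motif of ETS-family factors, in 7 of the members that hold it, chosen with and without p65 or PDX1 peaks. They lie at chr11:101316093-101316212 (Psme3, + strand), chr12:55398685-55398824 (Psma6, + strand), chr14:45329704-45329823 (Psmc6, + strand), chr16:20651532-20651651 (Psmd2, + strand), chr14:14120946-14121065 (Psmd6, - strand), chr12:100110082-100110201 (Psmc1, + strand) and chr11:30771655-30771774 (Psme4, + strand).
Psme3: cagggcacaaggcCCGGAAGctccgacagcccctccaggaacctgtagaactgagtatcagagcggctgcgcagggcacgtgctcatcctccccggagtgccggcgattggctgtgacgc
Psma6: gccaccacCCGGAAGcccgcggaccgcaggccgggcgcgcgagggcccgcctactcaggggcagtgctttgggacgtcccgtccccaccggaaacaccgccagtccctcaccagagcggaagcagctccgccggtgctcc
Psmc6: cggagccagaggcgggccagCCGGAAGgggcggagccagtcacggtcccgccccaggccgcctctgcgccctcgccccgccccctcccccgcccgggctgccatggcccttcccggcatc
Psmd2: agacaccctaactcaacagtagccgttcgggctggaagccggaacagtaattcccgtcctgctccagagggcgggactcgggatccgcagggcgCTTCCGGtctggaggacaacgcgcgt
Psmd6: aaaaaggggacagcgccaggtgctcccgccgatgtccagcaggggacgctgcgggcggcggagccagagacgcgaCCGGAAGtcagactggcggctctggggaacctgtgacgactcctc
Psmc1: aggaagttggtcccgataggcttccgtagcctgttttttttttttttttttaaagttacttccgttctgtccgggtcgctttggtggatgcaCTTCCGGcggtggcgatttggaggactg
Psme4: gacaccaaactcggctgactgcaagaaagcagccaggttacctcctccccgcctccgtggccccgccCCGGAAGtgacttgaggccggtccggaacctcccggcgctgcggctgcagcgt

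The next 3 sequences show the motifs nearest to the study's question and to NRF1. The stretch of Psmd12 (chr11:107479328-107479428, + strand, bases -200 to -100 from the start) holds the only κB consensus among the members' promoters. That of Psmb10 (chr8:105938443-105938542, - strand, bases -150 to -51 from the start) holds an E-box CACGTG, the motif of BMAL1 and its relatives. That of Psmb5 (chr14:54617996-54618095, - strand, the last 100 bases before the start) holds TGACNNNGC, the antioxidant response element bound by NRF1 and NRF2. Capitals mark these motifs.
Psmd12: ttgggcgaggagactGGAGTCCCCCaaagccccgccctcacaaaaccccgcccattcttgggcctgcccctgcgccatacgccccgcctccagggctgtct
Psmb10: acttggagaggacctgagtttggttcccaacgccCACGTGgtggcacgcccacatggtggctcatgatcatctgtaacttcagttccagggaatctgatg
Psmb5: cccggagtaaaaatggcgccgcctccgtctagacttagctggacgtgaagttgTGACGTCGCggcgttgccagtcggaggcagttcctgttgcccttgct

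The ETS core was found in the promoters of 16 of the 41 members in the promoter table (39.0%), against 12.9% of 17492 protein-coding genes. A promoter here is the 250 bases before to 50 bases after a start, on both strands, and a gene counted once over all its starts. The share was 41.0% of 61 cytosolic and 37.7% of 69 mitochondrial ribosomal protein genes, so it was not limited to the proteasome, and 25 members did not hold it. The antioxidant response element was in 6 members (14.6%, against 14.8% of all genes), namely Psmb5, Psmb6, Psmc6, Psmd9, Psmd12 and Psme4. The E-box was in 5 (12.2%, against 8.91%), namely Psma4, Psmb10, Psmd9, Psme3 and Psme3ip1. The κB consensus was in 1 (2.44%, against 5.53%). The interferon response core, GAAA on both sides of any 2 bases, was in 5 (12.2%, against 3.94%), namely Psmb3, Psmd4, Psmd9, Psme1 and Psmg4. It was also in 11.5% of the cytosolic and 4.35% of the mitochondrial ribosomal protein genes. The homeobox core TAATTA, which PDX1 recognises, was in 0 of 41 (against 5.37%). GGGCGG, the GC box, was in 23 (56.1%, against 49.2%) and CCAAT in 15 (36.6%, against 42.3%). Matches of different motifs overlapped in 2 member promoters, a GC box with the antioxidant response element of Psmd9 and with the ETS core of Psme4. The median GC content of the promoters was 57.3% for members and 56.3% for all genes. A match is a run of letters and does not show that a factor binds there.

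SIN3A peaks were assigned to most proteasome genes. With siPDX1 44 of 49 members had a SIN3A peak (89.8%, against 48.9% of all protein-coding genes), and with siCon 41 did (83.7%, against 46.4%). The same was seen at other housekeeping genes, with shares of 85.2% with siPDX1 and 84.0% with siCon for 81 cytosolic ribosomal protein genes, and of 82.1% and 78.2% in that order for 78 mitochondrial ones. A peak in both lists was found for 40 members (81.6%, against 42.8% of all genes) and in at least 1 of them for 45 (91.8%, against 52.4%). Both lists held a peak for 81.5% of the cytosolic and 75.6% of the mitochondrial ribosomal protein genes. Of the members with a siPDX1 peak 39 (88.6%, against 78.2% of all genes with such a peak) had one that overlapped a siCon peak by at least 1 bp. Of those with a siCon peak 38 did (92.7%, against 82.4%).

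**Figure D1:**
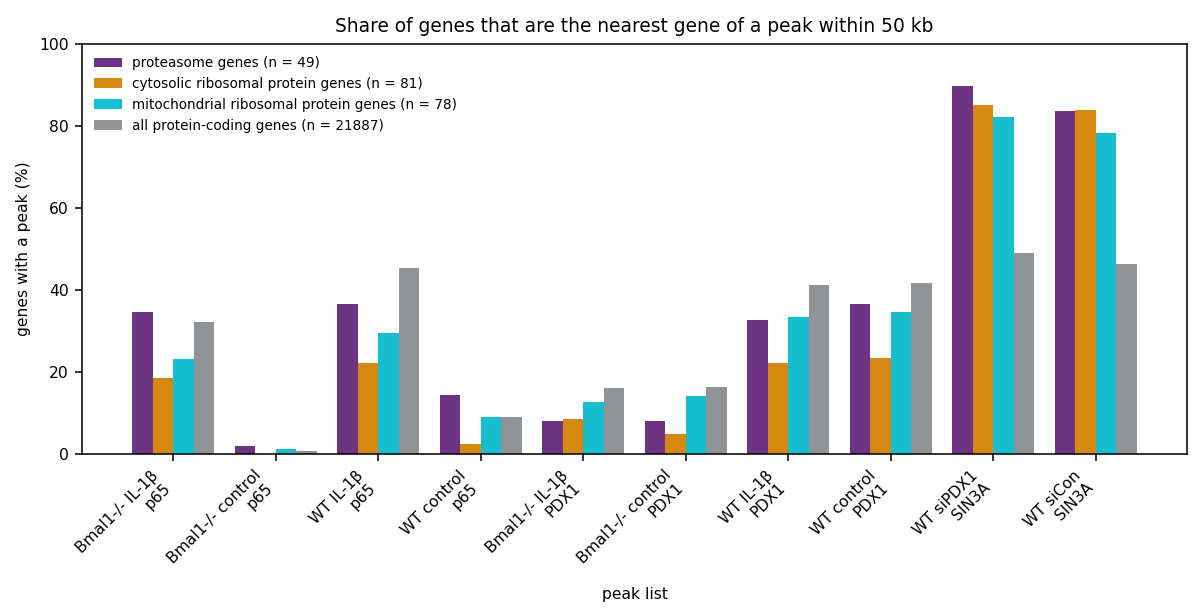
Share of genes (y axis, percent) that were the nearest protein-coding gene within 50 kb of at least 1 peak, for each of the 10 peak lists (x axis). Bars stand for the 49 proteasome genes, 81 cytosolic and 78 mitochondrial ribosomal protein genes and all 21887 protein-coding genes, with no error bars since each group has 1 list; in both SIN3A lists the 3 housekeeping sets stand above all genes, at 78.2% to 89.8%.

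These SIN3A peaks lay close to gene ends. The median distance of member peaks from the nearest end of the gene body was 190 bp with siPDX1 and 172 bp with siCon, where the medians over all genes were 379 bp and 349 bp. With siPDX1 41 members (83.7%, against 40.0% of all genes) had a SIN3A peak centred within 1 kb of a gene end, and with siCon 37 did (75.5%, against 38.0%). An annotated start with its strand was in the promoter table for 41 members. Of these, 37 had a SIN3A peak within 1 kb of a start with siPDX1 (90.2%, against 44.7%) and 34 with siCon (82.9%, against 42.6%). The highest of these peaks lay downstream of the start in 30 of the 37 members with siPDX1 (81.1%, against 83.2% of all genes) and in 27 of the 34 with siCon (79.4%, against 81.0%), at medians of 128 bp and 139 bp past the start in that order. Over all genes the medians were 140 bp and 136 bp, so the place of assigned SIN3A peaks was alike in members and all genes. Member peaks assigned to a neighbour are left out of this. With siPDX1 such a peak lay upstream and was higher than the assigned one at Psma7, Psmc2 and Psmc5, and with siCon at Psmc2. Where no assigned peak was at the start, neighbour peaks lay upstream at Psmd13 (both lists) and Psmc5 (siCon). They lay downstream at Psma4 and Psme3ip1 (siCon). In the siCon list SIN3A was at the start for 13 of 16 members with the ETS core and 21 of 25 without it, a split that was not tested. These counts leave out siCon peaks near starts that were assigned to a neighbour. Such peaks lay at Psmd13 and Psme3ip1, which hold the core, and at Psma4 and Psmc5, which do not.

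**Figure D2:**
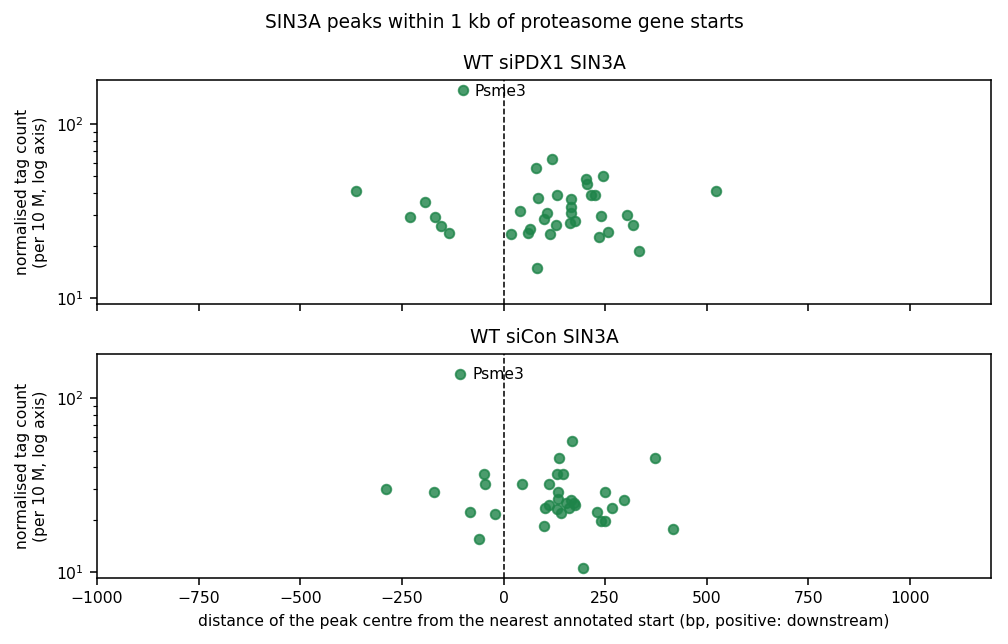
SIN3A peaks of proteasome genes within 1 kb of an annotated start, with siPDX1 (top, 37 genes) and siCon (bottom, 34 genes). The x axis gives the distance of the peak centre from the nearest start in bp (positive: downstream). The y axis gives the normalised tag count per 10 M tags on a log axis. Each point is 1 peak, 37 with siPDX1 and 35 with siCon, where Psme2 had 2. Most points lie downstream of the start, and Psme3, upstream of it, is the highest in both panels at 156.1 and 138.5.

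Psme3, the gene of the nuclear activator PA28γ, had by far the highest SIN3A value of the family. Its peak had 156.1 tags per 10 M with siPDX1 and 138.5 with siCon, was centred 100 and 106 bp before the start in that order, and overlapped the Psme3 sequence printed above. It ranked 8 of 14653 peaks by the authors' score with siPDX1 and 6 of 13109 with siCon. Next among assigned peaks came genes of assembly chaperones that build the core ring. Psmg4 had 62.6 and 56.7 tags and Psmg2 60.3 and 62.2, in the order siPDX1 and siCon. Higher peaks near 2 other members were assigned to neighbours. In the same order these had 96.1 and 64.7 tags near Psmc2 (assigned to Dnajc2) and 87.8 and 65.4 near Psmc5 (assigned to Ftsj3). All 4 chaperone genes Psmg1 to Psmg4 had a peak in both lists. Median tag counts of member peaks were 29.5 with siPDX1 and 25.0 with siCon, where the medians of the whole lists were 21.7 and 20.

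SIN3A peaks were spread over every structural class. In the core, 7 of 8 alpha-ring genes had a peak with siPDX1 and 6 with siCon. Psma7 led this ring with 48.0 tags with siPDX1 and 45.1 with siCon, and Psma5 had 41.2 and 45.1 in that order. The exception was Psma8, an alpha subunit of the testis, which had no SIN3A peak. Of 9 beta-ring genes, which include the catalytic subunits, 8 had a peak with siPDX1 and 7 with siCon. The catalytic Psmb5 had 23.2 tags with siPDX1 and 18.4 with siCon, Psmb6 had 23.7 and 22.9, and the immunosubunit gene Psmb10 had 35.7 and 35.1. Psmb3, a structural beta subunit, had 41.2 tags with siPDX1 and 28.7 with siCon. Psmb11, the beta subunit of the thymus, had none in either list.

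In the regulatory particle 5 of 6 ATPase genes had a SIN3A peak in each list. Psmc2 had 45.2 tags with siPDX1 and 36.4 with siCon, and Psmc3 at the low end had 22.0 and 19.3. Of 14 non-ATPase genes 13 had a peak with siPDX1 and 12 with siCon. Among assigned peaks Psmd7 led with 47.2 tags with siPDX1 and 41.2 with siCon. It encodes the partner of the deubiquitinase subunit Psmd14, whose gene had 30.9 and 22.2. Psmd9, an assembly chaperone of the ATPase ring, had 38.9 and 36.4, while Psmd10, another such chaperone, was lowest with 14.9 and 10.6. Of the activator and inhibitor genes 5 of 6 had a peak in both lists, all but Psme2b. Psmc3ip, which only shares the start of the name, had 35.5 tags with siPDX1 and 36.4 with siCon.

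Few members had a SIN3A peak in 1 of the lists alone, 4 of the 44 with siPDX1 (9.09%, against 12.4% of all genes) and 1 of the 41 with siCon (2.44%, against 7.71%). Psma4 (29.2 tags), Psmb7 (14.6), Psmc5 (55.8) and Psmd6 (26.9) had a peak only with siPDX1, and Psmc1 (21.9) only with siCon. Psmc1 and Psmc5 encode ATPases and Psmd6 a lid subunit. A siCon peak of 30.0 tags also lay inside the Psma4 body but was assigned to AY074887, and it did not overlap the siPDX1 peak of Psma4. Close to Psmc5 both lists also held a peak assigned to the neighbour Ftsj3, of 87.8 tags and 366 bp from the Psmc5 body with siPDX1 and of 65.4 tags and 378 bp away with siCon, so the Psmc5 peak of the siPDX1 list is a further one. Psme3ip1 had a peak in both lists, with highest values of 50.3 tags with siPDX1 and 8.05 with siCon at different sites, and a siCon peak of 40.3 tags inside its body was assigned to LOC115486880. Psmd13, a lid subunit gene listed without any peak, had a SIN3A peak of 50.9 tags 13 bp from its body with siPDX1 and of 45.7 tags 2 bp away with siCon, both assigned to Sirt3. When each peak counted for every gene within 1 kb, 45 members had a SIN3A peak with siPDX1 (91.8%, against 51.9% of all genes) and 44 with siCon (89.8%, against 49.7%). Of the members with a known start 13 of 41 (31.7%) had it within 1 kb of another protein-coding gene, against 17.3% of all genes. The only members with no peak in any of the 10 lists by the nearest-gene rule were Psmb11, Psmd13 and Psme2b (6.12%, against 28.2% of all genes).

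**Figure D3:**
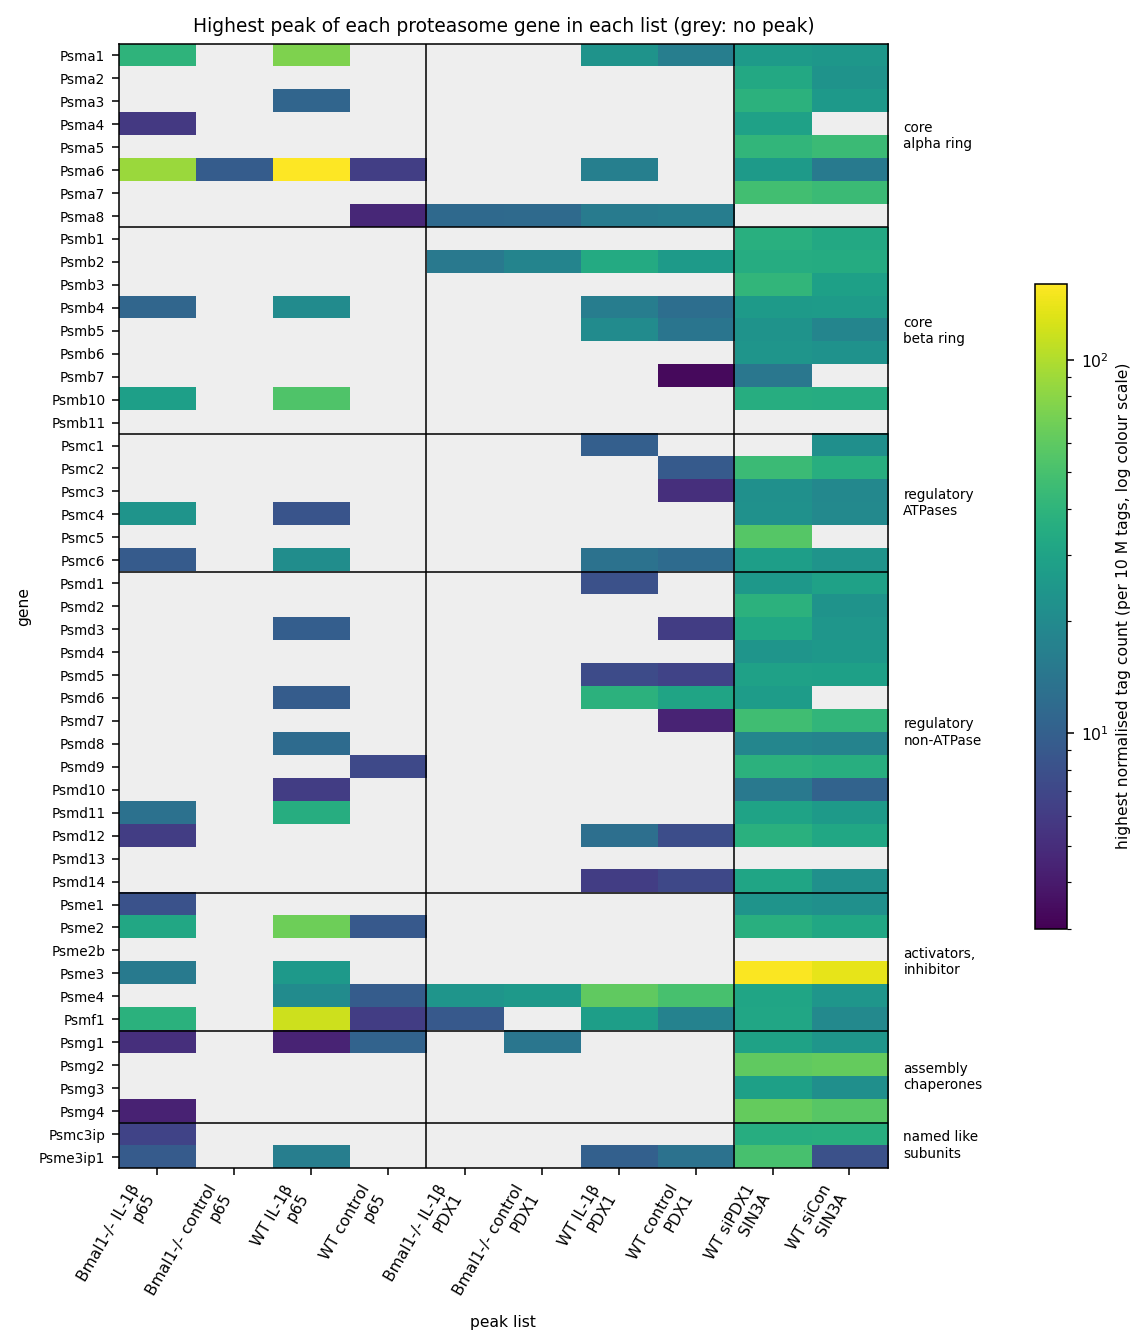
Highest normalised tag count (colour, tags per 10 M on a log scale) of each of the 49 member genes (rows, grouped by place in the proteasome) in each of the 10 peak lists (columns), with grey for no peak. SIN3A columns are filled for all but a few genes, while p65 and PDX1 columns are sparse and led by Psma6 for p65 (158.0 in WT cells with IL-1β) and Psme4 for PDX1 (60.4 in WT cells with IL-1β).

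With IL-1β, p65 peaks were found near a minority of proteasome genes, in shares near or below those of all genes. In Bmal1-/- cells 17 of 49 members had a peak (34.7%, against 32.3% of all protein-coding genes), and in WT cells 18 did (36.7%, against 45.4%). The WT share was 22.2% for cytosolic and 29.5% for mitochondrial ribosomal protein genes. The side of all genes on which the members lay changed with the settings. Counting peaks within 1 kb of the gene body, the share was 22.4% in Bmal1-/- cells with IL-1β (against 25.0%), and in lists of equal length it was 10.2% in WT cells with IL-1β (against 9.46%). Under control conditions 1 member had a p65 peak in Bmal1-/- cells (2.04%, against 0.658%) and 7 did in WT cells (14.3%, against 8.92%). Within 10 kb these were 0 members in Bmal1-/- control cells (against 0.576%) and 3 in WT control cells (6.12%, against 7.26%). The median distance of member p65 peaks from a gene end was 4159 bp in Bmal1-/- cells with IL-1β and 9062 bp in WT cells with IL-1β, where those of all genes were 13706 bp and 16695 bp. Member bodies had a median length of 12.3 kb, against 17.2 kb for all genes, and the stretch of genome nearest to them was 26.3 kb, against 46.6 kb, which limits how far an assigned peak can lie.

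**Figure D4:**
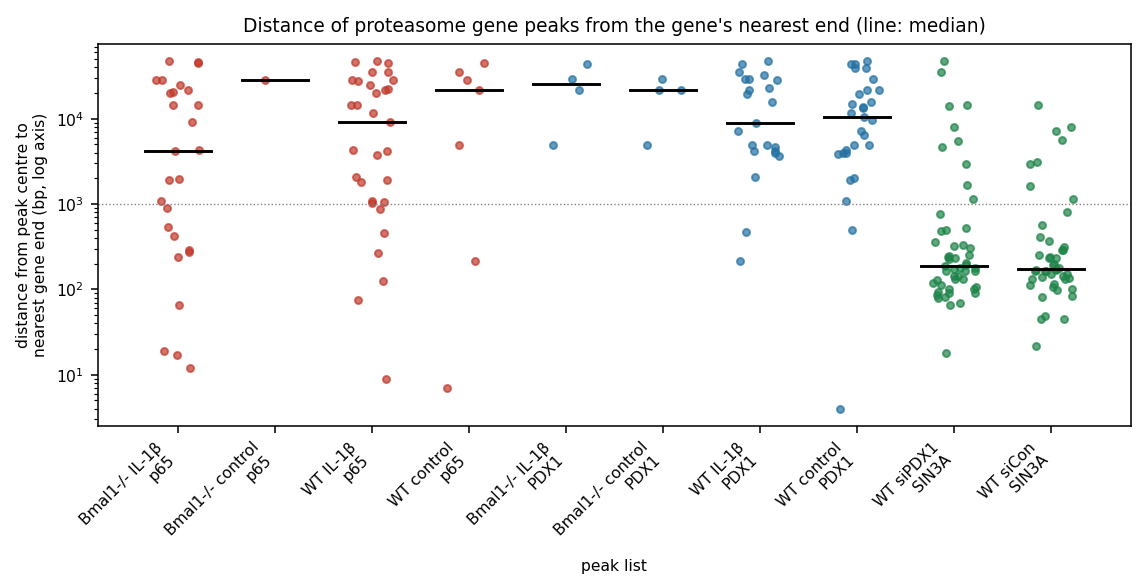
Distance of every proteasome gene peak from the nearest end of its gene body (y axis, bp, log axis) in the 10 peak lists (x axis), 1 point per peak, with a black line at the median and a dotted line at 1 kb. SIN3A peaks gather below 1 kb with medians of 190 bp (siPDX1) and 172 bp (siCon), while the median of p65 peaks was 4159 bp in Bmal1-/- and 9062 bp in WT cells with IL-1β.

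The members with the highest p65 values encode a core subunit, regulators of the proteasome and an immunosubunit. Psma6, an alpha-ring subunit, had 87.6 tags in Bmal1-/- cells and 158.0 in WT cells with IL-1β. Psmf1, the gene of the inhibitor PI31, had 38.1 tags in Bmal1-/- and 118.4 in WT cells with IL-1β. Psma1, also of the alpha ring, had 39.9 in Bmal1-/- and 74.2 in WT cells with IL-1β. These peaks were distant. The Psmf1 peak in WT cells lay 44490 bp from the gene body and the Psma1 peak 45696 bp from it, yet both were nearer to these than to any other protein-coding gene.

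Other members with high p65 values had their highest peak inside the gene or outside it. Inside lay those of Psme2, Psmb10, Psme3 and Psmd11. Psme2, a subunit of the interferon-inducible activator PA28, had 32.5 tags in Bmal1-/- and 66.1 in WT cells with IL-1β, at 818 and 796 bp past the start. Psmb10, the immunosubunit that replaces Psmb7, had 28.4 tags in Bmal1-/- and 53.2 in WT cells with IL-1β, at 271 and 270 bp past the start (WT peak chr8:105938019-105938225). Psme3 had 15.4 tags in Bmal1-/- and 25.8 in WT cells with IL-1β, at 534 and 459 bp past the start. Psmd11, a lid subunit gene, had 13.2 tags in Bmal1-/- and 35.9 in WT cells with IL-1β, near the far end of its body. Outside the gene lay the peaks of Psmc6, an ATPase, with 9.36 and 21.1 tags in that order, and of Psmb4, a structural beta subunit, with 11.1 and 20.5. Psme4, which encodes the activator PA200, had no peak in Bmal1-/- cells with IL-1β and 20.5 tags in WT cells with IL-1β, 21451 bp from its body. The ATPase gene Psmc4 was listed with 23.5 tags in Bmal1-/- and 8.41 in WT cells with IL-1β, also outside its body.

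The strongest p65 peaks assigned to Psma6 lay between Psma6 and Nfkbia, the gene of the NF-κB inhibitor IκBα and a well-known p65 target. The bodies of Psma6 (chr12:55384222-55418459) and Nfkbia (chr12:55489409-55492647) are 70950 bp apart. The highest peak (chr12:55446758-55446964 in WT cells with IL-1β) lay 28299 bp from Psma6 and 42445 bp from Nfkbia. It was the only member peak found in all 4 p65 lists, with 87.6 tags in Bmal1-/- cells with IL-1β, 9.53 in Bmal1-/- control cells, 158.0 in WT cells with IL-1β and 6.32 in WT control cells. A second peak 24734 bp from Psma6 (WT coordinates) had 64.3 tags in Bmal1-/- and 115.3 in WT cells with IL-1β. Nfkbia itself carried 197.4 tags in Bmal1-/- and 509.8 in WT cells with IL-1β. Which gene such a peak acts on cannot be read from its position. At the start of Psma6 that is shown above the p65 values were small, 7.24 tags in Bmal1-/- and 10.5 in WT cells with IL-1β.

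**Figure D5:**
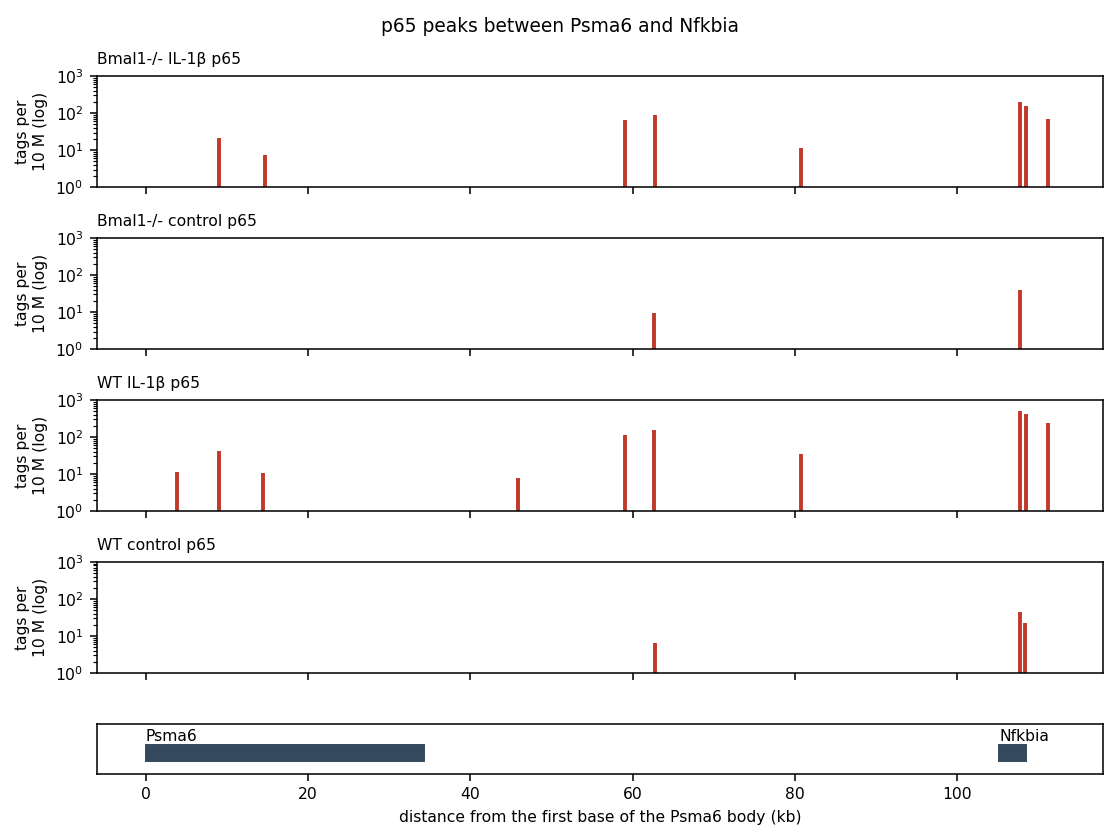
p65 peaks between Psma6 and Nfkbia in the 4 p65 lists (panels), as lines at the peak centre with the normalised tag count per 10 M tags on a log axis (y) against the distance from the first base of the Psma6 body in kb (x); boxes at the bottom are the gene bodies. The peak about 62.6 kb along, assigned to Psma6, is present in all 4 panels, and the tallest lines with IL-1β stand at Nfkbia.

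The p65 sites of members were partly shared between genotypes. With IL-1β 12 of the 17 Bmal1-/- members had a peak that overlapped a WT peak (70.6%, against 85.0% of all genes with such a peak), and 11 of the 18 WT members had one that overlapped a Bmal1-/- peak (61.1%, against 60.3%). Of the 12 members with a peak in both lists 11 had their highest peaks at overlapping sites. A peak in Bmal1-/- cells alone was found for 5 of the 17 (29.4%, against 8.74% of all genes) and in WT cells alone for 6 of the 18 (33.3%, against 35.2%). Psma4 (5.83 tags), Psmc3ip (6.71), Psmd12 (6.18), Psme1 (8.12) and Psmg4 (4.41) had a peak only in Bmal1-/- cells with IL-1β. Psma3 (11.0 tags), Psmd3 (9.9), Psmd6 (9.53), Psmd8 (12), Psmd10 (6.16) and Psme4 (20.5) had one only in WT cells with IL-1β. All but Psma3, Psmd8 and Psme4 were below the median of their list, which was 9.18 tags in Bmal1-/- and 10.3 in WT cells with IL-1β. The Psma4 peak of Bmal1-/- cells overlapped a WT peak of 7.66 tags that was assigned to AY074887.

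Peaks of p65 at starts were seen for 10 of 41 members in Bmal1-/- cells with IL-1β (24.4%, against 10.5% of all genes) and for 6 in WT cells with IL-1β (14.6%, against 14.0%), counting centres within 1 kb. The 10 were Psma1, Psma4, Psma6, Psmb10, Psmc3ip, Psme1, Psme2, Psme3, Psme3ip1 and Psmg4. Of these the Psma6, Psmc3ip, Psme1 and Psmg4 peaks had 4.41 to 8.12 tags and overlapped a SIN3A peak, as did a Psme2 peak of 17.3 tags centred 288 bp before the start. The share at starts was 16.4% for cytosolic and 11.6% for mitochondrial ribosomal protein genes in Bmal1-/- cells with IL-1β. The 6 WT members were Psma6, Psmb10, Psmd8, Psme2, Psme3 and Psme3ip1. Without the distance to a strand-known start, 9 members had a peak within 1 kb of either gene end in Bmal1-/- cells with IL-1β (18.4%, against 10.1%) and 6 did in WT cells with IL-1β (12.2%, against 14.0%). Under control conditions 0 members had a p65 peak within 1 kb of a gene end or start in Bmal1-/- cells (against 0.160% of genes for ends and 0.120% for starts). In WT control cells 2 did, Psmd9 and Psme2 (4.08%, against 1.48%, for ends and 4.88%, against 1.21%, for starts).

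Few p65 sites were found without IL-1β. The Bmal1-/- control list was called at a tag threshold of 35, against 21 in Bmal1-/- cells with IL-1β and 20 in WT control cells. The part of this threshold in the missing sites was not tested. In Bmal1-/- control cells Psma6 had the only member peak, which overlapped the IL-1β peak of the same cells (against 66.0% of all genes with a control peak). That made 1 of the 17 members with a peak in Bmal1-/- cells with IL-1β (5.88%, against 1.34%), and the other 16 had one with IL-1β alone (94.1%, against 98.3%). In WT cells 4 of the 18 members with an IL-1β peak had one that overlapped a control peak (22.2%, against 10.6%), and 5 of the 7 control members had one that overlapped an IL-1β peak (71.4%, against 53.9%). At the overlapping sites Psma6 had 158.0 tags with IL-1β and 6.32 under control conditions in WT cells, Psmf1 had 118.4 and 6.14, Psme4 had 20.5 and 9.48, and the chaperone gene Psmg1 had 3.74 and 10.6, in the same order. The Psme2 control peak of 9.11 tags was overlapped by an IL-1β peak of 42.0 tags that was assigned to Rnf31, and not by the Psme2 peak of 66.1 tags. Psma8 (4.65 tags) and Psmd9 (7.25) had a p65 peak only under control conditions (28.6% of the 7, against 10.7% of all genes with a WT control peak). The 13 members with a WT peak only with IL-1β (72.2% of the 18, against 82.5%) were Psma1, Psma3, Psmb4, Psmb10, Psmc4, Psmc6, Psmd3, Psmd6, Psmd8, Psmd10, Psmd11, Psme3 and Psme3ip1.

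PDX1 peaks, too, were found near a minority of members and seldom at gene ends. With IL-1β 4 members had a PDX1 peak in Bmal1-/- cells (8.16%, against 16.0% of all genes) and 16 in WT cells (32.7%, against 41.1%). Under control conditions 4 did in Bmal1-/- cells (8.16%, against 16.3%) and 18 in WT cells (36.7%, against 41.6%). Only 2 members had a PDX1 peak within 1 kb of a gene end in WT cells with IL-1β (4.08%, against 5.60%), Psmc1 and Psmd5, and 2 in WT control cells (4.08%, against 6.56%), Psmd3 and Psmd5. In both Bmal1-/- lists 0 of 49 members did (against 0.987% with IL-1β and 0.946% under control conditions).

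The gene with the highest PDX1 value was that of the activator PA200. A site upstream of Psme4, centred 21562 bp before its start in WT cells with IL-1β (chr11:30750100-30750326), was in all 4 PDX1 lists. It had 23.8 tags in Bmal1-/- cells with IL-1β, 25.3 in Bmal1-/- control cells, 60.4 in WT cells with IL-1β and 50 in WT control cells. Both WT p65 lists held an overlapping peak. Psmb2, a structural beta subunit, had 15.0 tags in Bmal1-/- cells with IL-1β, 18.1 in Bmal1-/- control cells, 34.3 in WT cells with IL-1β and 26.1 in WT control cells. Its Bmal1-/- peaks lay about 29 kb from the body and overlapped WT peaks, while the highest WT peaks lay inside the gene. Psma8 had 11.7, 11.9, 15.7 and 16.1 tags in the same order, at a site within its body.

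The lid subunit gene Psmd6 had a PDX1 peak in WT cells alone, with 38.9 tags with IL-1β and 30.4 under control conditions. Psmf1 had 27.9 tags in WT cells with IL-1β and 17.6 in WT control cells, and 9.08 in Bmal1-/- cells with IL-1β. Psma1 had 23.2 tags in WT cells with IL-1β and 16.5 in WT control cells. The catalytic Psmb5 had 20.4 and 14.0 in that order, and Psmb4 16.2 and 12.6. For Psme3ip1 the highest values were 10.2 and 13.5, at sites that did not overlap. Psma6 (16.8 tags), Psmc1 (10.0) and Psmd1 (8.1) had a WT PDX1 peak only with IL-1β (18.8% of the 16, against 16.3% of all genes). Psmb7 (3.32), Psmc2 (9.31), Psmc3 (5.15), Psmd3 (6.15) and Psmd7 (4.49) had one only under control conditions (27.8% of the 18, against 17.3%). Overlap with the control list was found for 11 of the 16 members with an IL-1β peak in WT cells (68.8%, against 75.7% of all genes), and overlap with the IL-1β list for 11 of the 18 control members (61.1%, against 74.8%).

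Between genotypes the shorter Bmal1-/- PDX1 lists held few of the WT sites. They were called at higher tag thresholds, 32 with IL-1β and 34 under control conditions, against 22 and 20 in WT cells. The part of these thresholds in the missing sites was not tested. With IL-1β all 4 Bmal1-/- members had a peak that overlapped a WT peak (91.7% of all genes with such a peak), which made 4 of the 16 WT members (25.0%, against 35.6%). Under control conditions 3 of the 4 did (75.0%, against 92.8%), or 3 of the 18 WT members (16.7%, against 36.3%). A PDX1 peak in Bmal1-/- cells alone was found for 0 of the 4 with IL-1β (against 3.20% of all genes) and 1 of the 4 under control conditions (25.0%, against 2.86%). One in WT cells alone was found for 12 of the 16 with IL-1β (75.0%, against 62.4%) and 15 of the 18 under control conditions (83.3%, against 62.0%). Within the Bmal1-/- lists 3 of the 4 members with IL-1β had a peak that overlapped a control peak (75.0%, against 67.1%), and 3 of the 4 control members the reverse (75.0%, against 65.8%). They were Psma8, Psmb2 and Psme4, while Psmf1 was listed with IL-1β alone (1 of 4, against 26.5% of all genes) and Psmg1 (14.3 tags) under control conditions alone (1 of 4, against 27.9%). Peaks of the Bmal1-/- PDX1 lists were 418 bp wide with IL-1β and 472 bp under control conditions, against 226 bp and 206 bp in WT cells, which widens the reach of a 1 bp overlap.

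Overlapping peaks of more than 1 of the proteins were found at a small group of members. The lists come from separate precipitations, so an overlap does not show that the proteins were bound together. The SIN3A cells had received siRNA, and their titles name no IL-1β. In WT cells with IL-1β 6 of the 18 members with a p65 peak had one that overlapped a PDX1 peak (33.3%, against 44.0% of all genes), which is 6 of the 16 with a PDX1 peak (37.5%, against 48.7%). These were Psma1, Psma6, Psmb4, Psmc6, Psmd6 and Psme4. At Psmf1 the p65 and PDX1 peaks lay next to each other without overlapping. Overlap of IL-1β p65 peaks with siCon SIN3A peaks in WT cells was found for 2 of the 18 (11.1%, against 15.0%), Psma6 and Psmd3. Overlap of control PDX1 peaks with them was found for 1 of 18 (5.56%, against 8.14%), Psme3ip1. Seen from SIN3A, 3 of the 41 siCon members had a peak that overlapped an IL-1β p65 peak (7.32%, against 14.7%) and 1 a control PDX1 peak (2.44%, against 7.30%).

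The members with SIN3A had p65 and PDX1 peaks in smaller shares than all genes with SIN3A. Of the 41 with a siCon peak 16 also had a p65 peak in Bmal1-/- cells with IL-1β (39.0%, against 48.1% of all genes with a siCon SIN3A peak) and 17 in WT cells with IL-1β (41.5%, against 61.9%). A PDX1 peak was found for 14 of them in WT cells with IL-1β (34.1%, against 54.9%) and for 15 in WT control cells (36.6%, against 55.7%). The same held for ribosomal protein genes with a siCon SIN3A peak, of which 25.0% of the cytosolic and 34.4% of the mitochondrial had a p65 peak in WT cells with IL-1β, and 26.5% and 39.3% in that order a PDX1 peak in WT control cells. These shares were not tested, and members have shorter stretches of genome nearest to them than other genes. A SIN3A peak without p65 or PDX1 in any list was found for 11 members (22.4%, against 11.0% of all genes, 45.7% of cytosolic and 34.6% of mitochondrial ribosomal protein genes), namely Psma2, Psma5, Psma7, Psmb1, Psmb3, Psmb6, Psmc5, Psmd2, Psmd4, Psmg2 and Psmg3.

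Other genes of the pathway came from a list chosen for their role with earlier results of these data known, and their shares were not tested against those of the subunit genes. Of 30 listed genes 29 were matched. A p65 peak was found for 14 in Bmal1-/- cells with IL-1β (48.3%, against 32.3% of all genes) and for 20 in WT cells with IL-1β (69.0%, against 45.4%). A SIN3A peak was found for 27 with siPDX1 (93.1%, against 48.9%) and 27 with siCon (93.1%, against 46.4%). Nfe2l1 had 58.3 p65 tags in Bmal1-/- and 193.3 in WT cells with IL-1β, no p65 peak under control conditions and no PDX1 peak. Ngly1 and Ddi2, whose products mature NRF1, had 21.4 and 13.4 p65 tags in Bmal1-/- and 57.5 and 42.0 in WT cells with IL-1β. Sem1, the smallest lid subunit, had 36.9 in Bmal1-/- and 105.9 in WT cells with IL-1β, and Ecpas, a proteasome-binding scaffold, had 50.7 and 105.0 in that order. Ube3c, a ubiquitin ligase of the proteasome, had PDX1 values of 137.2 in Bmal1-/- cells with IL-1β, 174.2 in Bmal1-/- control cells, 222.2 in WT cells with IL-1β and 188.6 in WT control cells. Distances of these single peaks are not given, and some peaks of the list were distant. In WT cells with IL-1β 36.1% of its p65 peaks lay over 10 kb from a gene end (against 61.4% for all genes). For PDX1 in the same cells 47.1% did (against 73.4%). The immunosubunit genes left out by the rule had few and low assigned peaks. Peaks near them that were assigned to a neighbour are not given. Psmb9 had a p65 peak of 3.92 tags in WT cells with IL-1β, and Psmb8 had a SIN3A peak of 12 tags with siPDX1 and 9.98 with siCon.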

How the data were processed

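The 34 ChIP-seq samples (28 precipitated and 6 inputs) are represented by 10 deposited peak lists, 1 per group of 2 or 3 samples. Per the file headers, the authors ran HOMER findPeaks (factor style) on a ChIP and an input tag directory and kept peaks at an FDR of 0.001 that exceeded input 4-fold (p-value threshold 0.0001) and the surrounding 10 kb 4-fold. Pooling of replicates is not stated in them. The peak signal is a tag count that the authors scaled to 10 M tags. The peak score, used to rank peaks, and the fold over input, a ratio, are the authors' values as deposited. The build mm10 and the tools Bowtie2 and HOMER come from the submitters' processing notes; settings of the alignment are not stated.

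Peaks were assigned with Python 3.11.15 and pandas 2.3.3 to 1 of 21887 RefSeq protein-coding genes (GRCm38.p6), the nearest body within 50 kb, measured from the nearest peak edge to the body; gene-end and start distances are from the peak centre. Of several annotated starts the nearest was used. 8 members are not in the promoter table and have no start distance. Assignment and overlap were tested on simulated peaks. No p-value was computed, since the lists hold no replicate values, and depth allows no interval for them. Members, gene lists and motifs were chosen with earlier results of these data known. Named are the 10 members with the highest tag counts for p65 and SIN3A, the 8 highest for PDX1, members with a peak in only 1 list of a compared pair and members without a peak.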

Additional observations from a re-analysis of the deposited data

How the results depend on the processing

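SIN3A counts kept within 1.5 times their value under every alternative run, from 35 to 45 members with siPDX1 and 35 to 44 with siCon. They stayed above the share of all genes under the 5 alternatives for which that share was computed, and the 4 PDX1 counts stayed below it. The p65 counts did not keep their side of all genes. Of all counts 59 stayed within 1.5 times and 43 moved further, and the cause was not tested. Of the medians of tag count and gene-end distance 27 moved and 65 did not.

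Shares of all genes follow each count of members with a peak that moved. Within 10 kb, p65 had 0 in Bmal1-/- control cells (against 0.576%) and 3 in WT control cells (6.12%, against 7.26%), and PDX1 had 1 in Bmal1-/- cells with IL-1β (2.04%, against 12.9%) and 1 in Bmal1-/- control cells (2.04%, against 13.2%). Within 1 kb, p65 had 11 in Bmal1-/- cells with IL-1β (22.4%, against 25.0%), 0 in Bmal1-/- control cells (against 0.512%) and 3 in WT control cells (6.12%, against 6.5%). PDX1 had 1 in Bmal1-/- cells with IL-1β (against 11.1%), 1 in Bmal1-/- control cells (against 11.4%) and 10 in WT cells with IL-1β (20.4%, against 30.3%). Counting every gene within 1 kb gave the same 11, 0 and 3 for p65 (against 26.8%, 0.548% and 6.76%) and the same 1, 1 and 10 for PDX1 (against 11.4%, 11.7% and 31.1%).

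At least 8-fold over input left, for p65, 10 in Bmal1-/- cells with IL-1β (20.4%, against 22.6%), 0 in Bmal1-/- control cells (against 0.21%), 11 in WT cells with IL-1β (22.4%, against 33.1%) and 2 in WT control cells (4.08%, against 4.0%). For PDX1 it left 0 in Bmal1-/- cells with IL-1β (against 6.94%), 1 in Bmal1-/- control cells (against 6.17%) and 8 in WT cells with IL-1β (16.3%, against 27.7%). For these counts, lists were also cut to equal length, to 3157 peaks for p65 and 8095 for PDX1. The Bmal1-/- control p65 list, with 173 peaks, kept its length. For p65 with IL-1β this left 6 in Bmal1-/- (12.2%, against 9.34%) and 5 in WT cells (10.2%, against 9.46%). For PDX1 in WT cells it left 6 with IL-1β (12.2%, against 15.3%) and 4 under control conditions (8.16%, against 14.9%).

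With peaks at least 8-fold over input, members with overlapping peaks numbered 2 (p65, WT IL-1β with control), 0 (p65, Bmal1-/- IL-1β with control), 7 (p65 with IL-1β, Bmal1-/- with WT), 5 (PDX1, WT IL-1β with control), 0 (PDX1, Bmal1-/- IL-1β with control), 1 (control PDX1, Bmal1-/- with WT), 0 (PDX1 with IL-1β, Bmal1-/- with WT), 2 (p65 with PDX1), 0 (p65 with SIN3A) and 0 (PDX1 with SIN3A). For overlaps at equal length, the longer list of each pair was cut to the length of the shorter. For p65 with IL-1β and control this gave 2 in WT cells (3157 peaks) and 0 in Bmal1-/- cells (173 peaks). With SIN3A it gave 0 for p65 and 0 for PDX1 (13109 peaks). For p65 with SIN3A, a reciprocal overlap of 50% and centres within 100 bp each gave 1. The reciprocal overlap was not run for Bmal1-/- p65 with IL-1β and control or for control PDX1 of Bmal1-/- and WT cells, whose peak widths allow at most 48.2% and 43.8%.

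No paired analysis was possible because the lists hold no value per replicate; leaving out each replicate and a replicate block were therefore not run.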
